A study of Mus musculus with 10 samples.

Results

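Promoter peaks assigned to transcripts that make no protein were examined for 2 histone H3 modifications in explanted mouse retina kept in low or high glucose. A peak belonged to this set when the deposited annotation placed it in a promoter, between 1000 bp upstream and 500 bp downstream of a transcript start, and gave that transcript any biotype other than protein_coding. The rule used position and annotation only and no measured value of these libraries. The peaks themselves were taken to be the H3K18La consensus peaks of developing retina merged over postnatal ages, because their number was the same. On that reading every peak entered through H3K18La and none through H3K27Ac. The rule took 6044 of the 17144 promoter peaks (35.3%), or 5.58% of all 108253 peaks, and these lay at 5946 transcripts of 5569 genes. The other 11100 promoter peaks, assigned to protein_coding transcripts, served as the comparison and are called coding promoter peaks here.

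Retinas came from wild-type C57BL/6J mice at postnatal day 28 and were cultured for 48 h in Neurobasal-A medium with 5 mM or 25 mM glucose. CUT&Tag, in which an antibody directs a DNA-cutting enzyme to a modified histone so that the released fragments mark its position, was run on 500000 cells per assay for lactylation of lysine 18 (H3K18La, 3 libraries at each glucose level) and acetylation of lysine 27 (H3K27Ac, 2 libraries at each level). No animal carried an engineered allele, and all libraries were labelled as batch 1. The study's methods call its replicates biological, but neither they nor the labels say whether libraries of a group came from separate mice, and p-values measure the spread between these libraries.

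H3K27Ac is placed by acetyltransferases on nucleosomes beside active promoters and enhancers, and H3K18La is a modification whose supply of lactyl groups is linked to lactate, the end product of the aerobic glycolysis that photoreceptors rely on. Non-coding transcripts are of several kinds. Long non-coding RNAs such as Malat1 act as RNA or are by-products of a regulatory element, small nucleolar and small nuclear RNAs guide RNA modification and splicing, microRNAs repress messenger RNAs that match their seed, and many protein-coding genes also make processed forms without a full reading frame, such as transcripts that keep an intron (retained_intron), that are marked for nonsense-mediated decay (nonsense_mediated_decay) or that fit no other class (processed_transcript). In the retina, microRNAs of the miR-183/96/182 cluster are abundant in photoreceptors and miR-124 is the leading neuronal microRNA.

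The sequences at which the results turn are printed first. The microRNAs encoded in or beside the member peaks of Mir96, Mir8120 and Mir7671 are given 5′ to 3′ as RefSeq lists them, with the seed (bases 2 to 8) in capitals, because the peaks of these genes were among the strongest or the most changed of the microRNA class.
mmu-miR-96-5p: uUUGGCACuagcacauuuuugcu
mmu-miR-183-5p: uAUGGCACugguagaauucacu
mmu-miR-182-5p: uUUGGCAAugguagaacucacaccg
mmu-miR-8120: uGUGCCUUgcaacuuccgagcc
mmu-miR-7671-5p: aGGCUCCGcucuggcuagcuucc

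No pair of these seeds was identical. In GRCm38 miR-96-5p lies at chr6:30169506-30169528 and miR-183-5p at chr6:30169711-30169732, both on the minus strand and both inside the peak annotated to Mir96 at chr6:30166966-30169895. miR-182-5p at chr6:30165962-30165986 falls wholly outside that peak, with its far end 1004 bases from the peak's edge. miR-8120 (chr3:65659328-65659349, plus strand) and miR-7671-5p (chr11:53763632-53763654, minus strand) lie inside the peaks of their own genes. Of 115 microRNA genes among the members, 73 had a RefSeq entry.

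A few promoters were chosen to show the range of sequence in the set: a neuronal microRNA host far from any coding gene (Mir124-2hg), a transcript beside the miR-183 cluster (Rncr4), a transcript beside a photoreceptor transcription factor gene (Otx2os1), a promoter shared with a coding gene (Snhg10) and an imprinted transcript (Peg13). Each is 200 bases of GRCm38 on the strand of its gene, 5′ to 3′, with capitals at any GC box (GGGCGG or its complement CCGCCC) and any CRX-type match (TAATCC or its complement GGATTA).
Mir124-2hg, chr3:17790423-17790622 (plus strand): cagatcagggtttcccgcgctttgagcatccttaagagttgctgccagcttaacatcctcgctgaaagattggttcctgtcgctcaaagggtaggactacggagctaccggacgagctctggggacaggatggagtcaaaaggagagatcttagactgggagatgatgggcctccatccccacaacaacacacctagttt
Rncr4, chr6:30172686-30172885 (plus strand): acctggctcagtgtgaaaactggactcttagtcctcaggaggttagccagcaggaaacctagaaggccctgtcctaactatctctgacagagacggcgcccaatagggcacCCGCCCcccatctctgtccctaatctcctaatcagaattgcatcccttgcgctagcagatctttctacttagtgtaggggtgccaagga
Otx2os1, chr14:48668901-48669100 (plus strand): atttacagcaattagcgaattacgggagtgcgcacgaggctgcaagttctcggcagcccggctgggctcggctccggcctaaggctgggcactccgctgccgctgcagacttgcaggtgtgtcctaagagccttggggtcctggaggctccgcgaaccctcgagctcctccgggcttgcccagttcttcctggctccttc
Snhg10, chr12:105032785-105032984 (minus strand): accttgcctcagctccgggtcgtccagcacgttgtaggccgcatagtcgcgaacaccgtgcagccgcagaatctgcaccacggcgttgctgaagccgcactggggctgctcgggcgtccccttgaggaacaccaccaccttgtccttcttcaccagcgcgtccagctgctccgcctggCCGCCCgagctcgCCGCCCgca
Peg13, chr15:72810314-72810513 (minus strand): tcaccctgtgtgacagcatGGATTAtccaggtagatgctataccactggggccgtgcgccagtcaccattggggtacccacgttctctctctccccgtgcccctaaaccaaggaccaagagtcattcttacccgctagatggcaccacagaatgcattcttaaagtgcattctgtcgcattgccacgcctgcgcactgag

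The Snhg10 window is part of a wider peak over the start of the coding gene Glrx5, and the window itself is not shown to hold that start. It held 21 CpG dinucleotides at 67.5% GC and 2 GC boxes. The Otx2os1 window held 14 CpG at 63.5% GC and no match. Rncr4 had 4 CpG and 1 GC box, Mir124-2hg had 7 CpG and no match, and Peg13 had 8 CpG and 1 CRX-type match.

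By kind of transcript, most members were processed forms, which numbered 3178 (52.6%), followed by 1911 long non-coding RNAs (31.6%), 530 pseudogenes (8.77%), 409 small RNAs (6.77%) and 16 antigen receptor segments. Of the processed forms, 95.2% belonged to genes that also encode a protein, and over all kinds 3038 members (50.3%) were annotated to genes that also encode a protein. The largest biotypes were processed_transcript with 1393 peaks, retained_intron with 1372, lincRNA with 1119, antisense with 470, processed_pseudogene with 436, nonsense_mediated_decay with 409, TEC (transcripts to be experimentally tested) with 276, snoRNA with 167 and miRNA with 118.

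The members differed from coding promoter peaks in sequence. Their median GC content was 53.6% and their median ratio of observed to expected CpG was 0.32, against 59.2% and 0.67 in coding promoter peaks and 49.6% and 0.20 in all peaks. The GC box GGGCGG, searched on both strands in 300 bases around the peak centre, occurred in 27.6% of members, 54.1% of coding promoter peaks and 11.8% of all peaks. TATAAA, the box bound by TBP, occurred in 7.63% of members against 4.04% of coding promoter peaks, and the CRX-type TAATCC, a motif bound by photoreceptor homeobox factors, in 8.95% against 5.86%. In all peaks these shares were 11% and 11.5%. CCAAT was found at 29.1%, 26.8% and 31.4% in members, coding promoter peaks and all peaks, the NRF1-type GCATGCGC at 1.21%, 3.00% and 0.782%, and the cyclic AMP response element TGACGTCA at 0.811%, 1.64% and 0.434%. None of these motifs contains another, and a match is a description of letters and not a bound site.

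A protein_coding transcript start lay in or within 1 kb of 2119 members (35.1%), here called shared, and the other 3925 (64.9%) lay apart from any coding start. The shared fraction was 84.8% for nonsense_mediated_decay, 63.1% for retained_intron and 51.1% for processed_transcript, but 18.9% for antisense, 4.11% for lincRNA and 0.599% for snoRNA. Shared members had a median GC content of 59.4% and a CpG ratio of 0.67, close to the 59.2% and 0.67 of coding promoter peaks, while members apart had 51.1% and 0.24. A GC box was found in 52.7% of shared members and 14.0% of those apart. The transcript start itself lay inside the peak for 82.7% of members and 92.7% of coding promoter peaks, but for 48.1% of pseudogenes. Pseudogenes and small RNA genes often have near-identical copies elsewhere, so how reads were divided among copies is uncertain for these classes.

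Depth set how firmly single peaks can be read. RPKM values are reads per kilobase of peak, scaled to a library's total, and the denominators recovered from them ranged from 1358008 to 7424470 reads, and the median member held 1 to 7 reads in the H3K18La libraries and 8 to 33 in the H3K27Ac libraries. Between 5.29% and 30.9% of members had 0 reads in an H3K18La library and between 2.42% and 5.74% in an H3K27Ac library, where 0 reads allow up to 3. The share of reads in peaks was 11.8 to 12% for H3K18La at 5 mM and 31.2 to 35% at 25 mM, and for H3K27Ac 21.1 and 31.5% at 5 mM and 69.5 and 56.5% at 25 mM. Fold changes of values scaled to it are given for the groups of peaks and for the main named peaks below. The library of H3K18La at 25 mM replicate 1 stood apart, with the highest share of its mark. All 8 rod photoreceptor markers had a promoter peak, at 7.19 to 13.3 RPKM for H3K27Ac at 5 mM and 39.1 to 62.6 RPKM at 25 mM, and their median went from 10.4 to 47.4 RPKM for H3K27Ac and from 2.05 to 11.6 RPKM for H3K18La. The H3K27Ac medians went from 2.89 to 5.15 RPKM for 5 of 6 Müller glia markers, from 1.81 to 4.00 RPKM for 3 of 7 of pigment epithelium and from 0.884 to 1.11 RPKM for 2 of 4 of lens, and 0 of 6 microglia markers had a promoter peak. For H3K18La those 3 medians went from 1.02 to 2.24, from 0.734 to 1.77 and from 0.551 to 0.957 RPKM. These differences between cell types in the change with glucose were not tested. In a bulk assay, fewer cells of a type and less mark per cell cannot be told apart.

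The first comparison asked whether the promoters of non-coding transcripts carried as much of each mark as coding ones. For H3K27Ac they carried less in every library. The median member stood at 1.77 and 2.34 RPKM at 5 mM and 4.14 and 3.53 RPKM at 25 mM, against 2.96 and 4.20, then 11.5 and 7.96 RPKM for coding promoter peaks. The difference of the mean log2(RPKM + 0.5), non-coding minus coding, was -0.64 ± 0.20 (SD, n = 4) and negative in 4 of 4 libraries, with an exact two-sided sign-flip p of 0.13, the smallest that 4 libraries allow.

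H3K18La is the mark on which the peaks were taken to have been called, and the part of that selection in the H3K18La levels was not tested. The median member had 0.94, 0.92 and 0.89 RPKM at 5 mM and 2.12, 1.73 and 1.64 RPKM at 25 mM, and coding promoter peaks had 0.94, 0.89 and 0.84, then 2.51, 1.75 and 1.65 RPKM. The groups of peaks thus lay close together in every library except H3K18La at 25 mM replicate 1. The mean difference was -0.004 ± 0.086 (SD, n = 6; exact sign-flip p = 0.969, adjusted p = 1 over 20 such contrasts), negative in 2 and positive in 4 libraries. The mean difference turned to 0.154 when peaks with a mean RPKM under 1 were left out. That filter itself uses the RPKM that is compared. The exact sign-flip p of 0.0312 was unadjusted and is the smallest that 6 libraries allow.

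Because the peaks were taken to have been selected on 1 mark and not on the other, a difference between the marks cannot be told apart from that selection. The non-coding minus coding value was lower by 0.63 on the log2 scale for H3K27Ac than for H3K18La (exact permutation of the mark labels over 10 libraries, p = 0.00952, the smallest possible for 6 against 4). Within 5 mM the difference between marks was -0.51 and within 25 mM -0.76, each with an exact p of 0.2. The denominators were 4324289 to 7424470 reads for H3K27Ac and 1358008 to 5182766 for H3K18La, overlapping between marks, and their part in the difference was not tested.

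Members that shared a coding start were next set against members apart from one. For H3K27Ac the median shared member had 2.87 and 4.10 RPKM at 5 mM and 10.8 and 7.62 RPKM at 25 mM, and the median member apart had 1.35 and 1.76, then 2.61 and 2.40 RPKM. Shared members were thus higher in every H3K27Ac library, at levels near those of coding promoter peaks, with a mean difference of 0.91 ± 0.28 on the log2 scale (SD, n = 4; positive in 4 of 4; exact p = 0.13, the smallest possible).

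For H3K18La the median shared member had 0.91, 0.85 and 0.83 RPKM at 5 mM and 2.36, 1.66 and 1.57 RPKM at 25 mM, and the median member apart had 0.96, 0.96 and 0.92, then 1.97, 1.78 and 1.71 RPKM. Members apart were the higher ones in 5 of 6 libraries, the exception being H3K18La at 25 mM replicate 1. The mean difference, shared minus apart, was -0.06 ± 0.13 (SD, n = 6; exact p = 0.281, adjusted p = 0.375). With weak peaks left out (mean RPKM under 1), a filter that itself uses the RPKM compared, it was -0.273. The exact sign-flip p of 0.0312 was unadjusted and is the smallest that 6 libraries allow. A pseudocount of 0.1 turned the difference to 0.0136. Between marks, with the same limit of selection on H3K18La, the shared minus apart value differed by 0.975 (exact permutation p = 0.00952, the smallest possible), with 0.79 at 5 mM and 1.16 at 25 mM (exact p = 0.2 each).

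**Figure D1:**
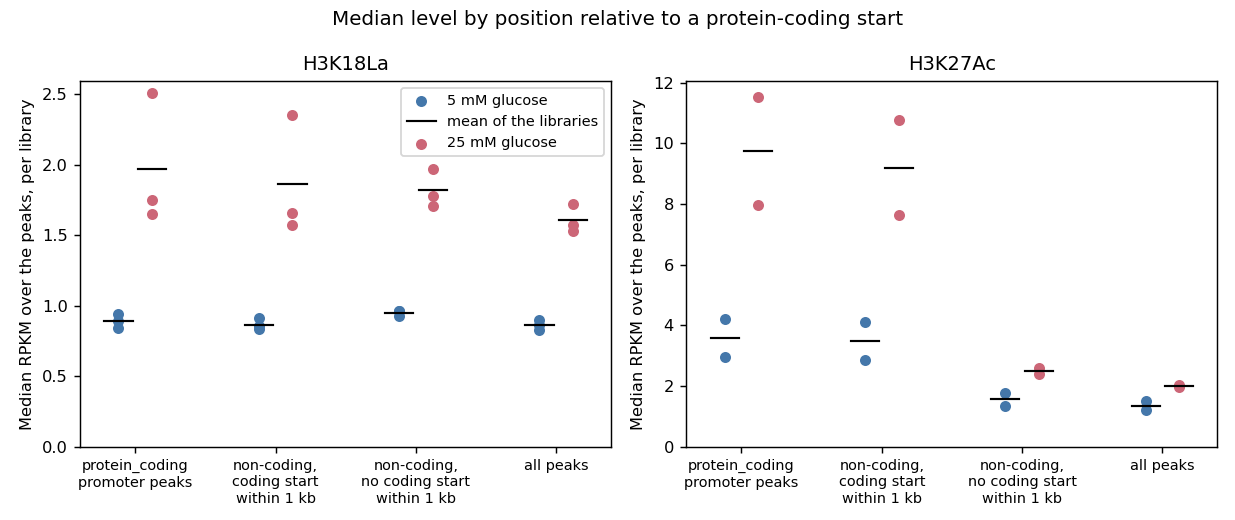
Median RPKM over the peaks of each set (y axis) in each library, for protein_coding promoter peaks, non-coding promoter peaks with a coding start within 1 kb, those without one, and all peaks, at 5 mM and 25 mM glucose, with short lines at group means. For H3K27Ac at 25 mM the members with a coding start stood at 10.8 and 7.62 RPKM and those without at 2.61 and 2.40 RPKM, whereas for H3K18La the sets lay within 1.53 to 2.51 RPKM at 25 mM.

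Levels were ordered for the 14 biotypes with at least 20 member peaks, and H3K27Ac gave a wide order. Relative to coding promoter peaks on the mean log2(RPKM + 0.5) scale, nonsense_mediated_decay transcripts were higher by 0.08 (positive in 4 of 4 libraries), retained_intron stood at -0.23 and processed_transcript at -0.24. Below them came sense_intronic at -0.57, antisense at -0.64, snRNA at -0.66, miRNA at -0.75 and TEC at -0.84. The lowest were lincRNA at -1.13, misc_RNA at -1.15, rRNA at -1.4, snoRNA at -1.67, processed_pseudogene at -1.72 and unprocessed_pseudogene at -1.74. The step from nonsense_mediated_decay to retained_intron (0.31 ± 0.10, SD) and that from TEC to lincRNA (0.29 ± 0.05) kept their order in 4 of 4 libraries, and so did the step from misc_RNA to rRNA (0.25 ± 0.07). Neighbours such as retained_intron and processed_transcript, antisense and snRNA, or the last 3 did not differ beyond their spread. Each of these contrasts had an exact p of 0.13, which 4 libraries cannot go below.

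H3K18La gave a narrower order, from 0.16 for sense_intronic, 0.11 for TEC and 0.07 for lincRNA to 0.00 for nonsense_mediated_decay and -0.01 for retained_intron. At the low end were snoRNA at -0.30, processed_pseudogene at -0.36 and unprocessed_pseudogene at -0.38, on the same scale. Both pseudogene classes were below coding promoter peaks in 6 of 6 libraries (exact sign-flip p = 0.0312, the smallest for 6 libraries, adjusted p = 0.208 over 20 contrasts). No step between neighbours in this order exceeded its spread over libraries.

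**Figure D2:**
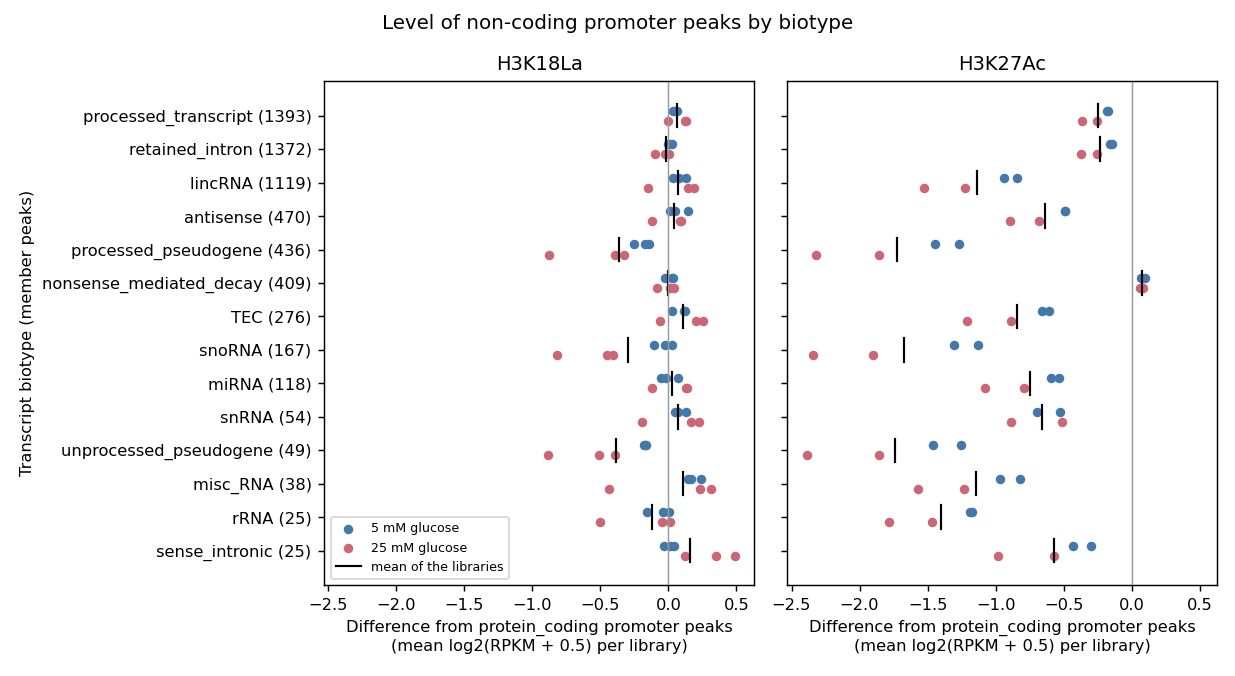
Difference in mean log2(RPKM + 0.5) between the member peaks of each biotype with at least 20 peaks and protein_coding promoter peaks (x axis), 1 point per library coloured by glucose, with a line at the mean of the libraries; the number of peaks is beside each biotype. For H3K27Ac the means run from 0.08 for nonsense_mediated_decay to -1.74 for unprocessed_pseudogene, and for H3K18La from 0.16 for sense_intronic to -0.38.

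The second comparison asked how the mark at these promoters changed from 5 mM to 25 mM glucose. For H3K18La, 1379 members (22.8%) passed the threshold, 1375 of them higher at 25 mM and 4 lower, against 20.8% of all peaks (limma with Benjamini-Hochberg adjustment over all peaks, threshold 0.05) and 19.2% of coding promoter peaks (2126). For H3K27Ac, 1739 members (28.8%) passed, 1734 higher and 5 lower, against 16.6% of all peaks and 47.2% of coding promoter peaks (5234). The share of members called was thus near the background for H3K18La, and for H3K27Ac it lay above all peaks and below coding promoter peaks. The median log2 fold change of members was 0.86 for H3K18La and 0.87 for H3K27Ac, beside 0.76 and 0.58 for all peaks and 0.89 and 1.24 for coding promoter peaks.

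These rises were on the scale of the deposited RPKM, on which reads in peaks rose too. Dividing by each library's reads in peaks removes by construction any rise that peaks share, so scaled values give a change relative to the other peaks and say nothing of a general rise. Under that scaling 0 members passed for either mark (580 and 865 at an unadjusted p under 0.05), and the median member log2 fold change was -0.05 for H3K18La and -0.13 for H3K27Ac, beside -0.07 and -0.29 for all peaks. Quantile normalization, which also removes a shared rise, left 0 calls (490 and 568 members had an unadjusted p under 0.05). When libraries were centred on their median peak, 351 members passed for H3K18La (5.81%, near the 5.02% of all peaks) and 601 for H3K27Ac (9.94%, against 5.11%). For H3K27Ac, ordinary moderation or a pseudocount of 0.1 also left 0. A threshold of 0.01 left 8 members (86 of all 108253 peaks), and removing a GC trend left 1144 (14843 of all peaks). The replicate block left 703 H3K27Ac member calls (8518 of all peaks), and 546 with the GC trend removed as well (8154 of all peaks), although the numbers did not pair the libraries. A threshold of 0.01 left 754 member calls for H3K18La (11775 of all peaks). Leaving out 1 H3K27Ac library sets 1 library against 2 with 1 residual degree of freedom, and such fits called 0 members at medians of 0.69 to 1.08, so they say little about stability. For H3K18La, 869 of the 6044 members passed without 25 mM replicate 1 and 791 without 25 mM replicate 2. Of all 108253 peaks, 14260 and 12138 passed in these fits. None of the peaks named below passed when scaled to reads in peaks.

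The interaction of glucose and mark was past the threshold at 0 members, with a background of 0% and with 250 members at an unadjusted p under 0.05. Of the members that rose, 748 rose for both marks, which is 54.4% of the H3K18La rises and 43.1% of the H3K27Ac rises. Over all peaks, 8830 rose for both, or 39.5% and 49.6% of the rises. Both marks were measured at the same peaks, and no test of the overlap was made.

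Among shared members 375 (17.7%) were called for H3K18La and 921 (43.5%) for H3K27Ac, and among members apart 1004 (25.6%) and 818 (20.8%), against 20.8% and 16.6% of all peaks. By kind, the H3K27Ac share called ran from 37.0% of processed forms and 22.3% of long non-coding RNAs to 18.3% of small RNAs and 11.5% of pseudogenes, while the H3K18La share ran from 25.7% of long non-coding RNAs and 22.3% of processed forms to 19.1% of pseudogenes and 18.8% of small RNAs. The H3K18La shares of processed forms, pseudogenes and small RNAs and the H3K27Ac share of small RNAs lay near those of all peaks. When scaled to reads in peaks none of these passed, and the median log2 fold change was -0.05 for H3K18La in both shared members and members apart, and 0.04 and -0.25 for H3K27Ac. The change of the shared minus apart value with glucose was 0.42 for H3K27Ac, with groups that did not overlap (exact p = 0.33, the smallest that 2 against 2 libraries allow), and 0.04 for H3K18La (exact p = 1).

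The shares called by biotype are read against the 20.8% and 16.6% of all peaks. For snoRNA 14 of 167 peaks (8.38%) were called for H3K18La and 13 (7.78%) for H3K27Ac, with median log2 fold changes of 0.37 and 0.16 that became -0.40 and -0.57 under scaling to reads in peaks. For processed_pseudogene the counts were 81 (18.6%) and 46 (10.6%), with medians of 0.51 and 0.37 that became -0.18 and -0.36, and the first of these shares lay near the background. The biotype nonsense_mediated_decay had 183 of 409 peaks called for H3K27Ac (44.7%) with a median of 1.21, which became 0.04 under the same scaling, and 74 (18.1%) for H3K18La. The 54 snRNA peaks had 23 called for H3K27Ac (42.6%) and a median of 1.07, or 0.11 when scaled. TEC transcripts had 82 of 276 called for H3K18La (29.7%) and lincRNAs 284 of 1119 (25.4%), with medians of 0.90 each that became 0.01 and -0.03 when scaled.

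**Figure D3:**
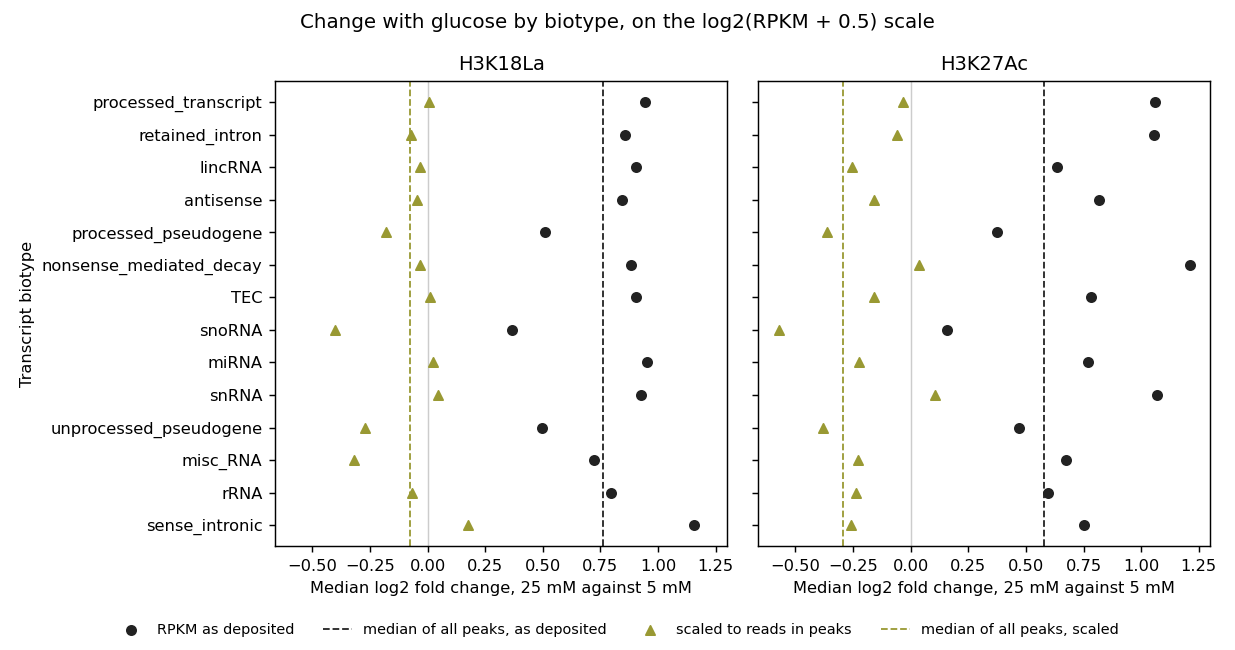
Median log2 fold change from 5 mM to 25 mM (x axis, log2(RPKM + 0.5) scale) of each biotype's member peaks for the RPKM as deposited (circles) and scaled to reads in peaks (triangles), with dashed lines at the median of all peaks. Biotypes with at least 20 peaks are shown; circles for snoRNA sit lowest among them, at 0.37 for H3K18La and 0.16 for H3K27Ac, and the triangles lie about 0, between -0.40 and 0.18 for H3K18La and between -0.57 and 0.11 for H3K27Ac.

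The largest rises of a mark were named only where its glucose groups did not overlap, so that separation was part of the choice. Among these genes was Mir124-2hg, a host transcript of miR-124 with the highest mean RPKM of all lincRNA members. Its peak at chr3:17790360-17790684 lies 157726 bases from the nearest coding start. Its H3K18La values were 8.75, 5.34 and 0 RPKM at 5 mM and 39.1, 31.8 and 22.8 RPKM at 25 mM. Its H3K27Ac values were 22.8 and 36.2, then 121 and 72.1 RPKM. The groups did not overlap for either mark, and the log2 fold changes were 3.37 ± 0.75 (SE; limma adjusted p = 0.00601) and 1.68 ± 0.53 (adjusted p = 0.0347). Without H3K18La at 25 mM replicate 1 the adjusted p for H3K18La was 0.0594, and scaled to reads in peaks the changes at Mir124-2hg were 2.21 and 0.42, neither past the threshold.

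Casz1, a zinc finger factor of retinal progenitors and rods, was named through a processed_transcript whose peak at chr4:148888695-148890195 lies 10954 bases from a coding start. H3K18La there was 0.316, 0.771 and 1.96 RPKM at 5 mM and 24.4, 10.0 and 6.74 RPKM at 25 mM, and H3K27Ac was 3.39 and 6.11, then 74.0 and 28.7 RPKM. Both marks were higher in every library at 25 mM, with log2 fold changes of 3.18 ± 0.50 (SE; adjusted p = 0.000697) and 3.20 ± 0.51 (adjusted p = 0.00655). These were 2.02 and 1.99 when scaled to reads in peaks, where neither passed.

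Gm38221, a TEC transcript at chr2:148891007-148891555, rose for H3K18La from 0.864, 2.46 and 0 RPKM to 19.5, 19.3 and 11.1 RPKM, a log2 fold change of 3.71 ± 0.52 (SE; adjusted p = 0.0004). For H3K27Ac it went from 11 and 11.1 to 27.1 and 37.0 RPKM (1.48 ± 0.46; adjusted p = 0.0351). The 5 mM and 25 mM groups were apart for both marks. Scaled to reads in peaks the changes were 2.64 and 0.23, and that for H3K27Ac was -0.03 under quantile normalization.

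Pcbp3, which encodes a poly(C)-binding protein, had 3 member peaks within one stretch of chromosome 10, all away from its coding start. The peak at chr10:76819238-76819895, a processed_transcript, had the highest mean of its biotype. It rose for H3K18La from 8.65, 7.33 and 8.95 RPKM to 58.0, 51.6 and 53.8 RPKM (log2 fold change 2.64 ± 0.18, SE; adjusted p = 5.34e-05), with little spread within either group. H3K27Ac there rose from 20.4 and 35.2 to 96.6 and 75.3 RPKM (1.65 ± 0.52; adjusted p = 0.035). The peak at chr10:76822604-76823026, another processed_transcript, gave the second largest H3K18La rise of the named set at 3.67 ± 0.59 (adjusted p = 0.000809) with values from 2.24, 3.65 and 0 to 31.3, 20.9 and 16.7 RPKM. The peak at chr10:76816321-76817130, the strongest of the nonsense_mediated_decay biotype, rose by 2.40 for H3K18La (adjusted p = 0.000708) and 2.38 for H3K27Ac (adjusted p = 0.0135). As neighbouring peaks of one gene these are not independent of each other. Scaled to reads in peaks, the H3K18La changes of the 3 Pcbp3 peaks were 1.24, 2.55 and 1.03 in this order.

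Mir7671, a microRNA gene at chr11:53762774-53764253 whose nearest coding start is that of Irf1, an interferon response factor, at 5761 bases, gave the largest H3K27Ac rise, from 1.09 and 3.16 to 37.0 and 13.3 RPKM (log2 fold change 3.24 ± 0.51, SE; adjusted p = 0.00746). Its H3K18La went from 1.28, 0.782 and 0.995 to 19.6, 9.31 and 2.96 RPKM (2.55 ± 0.53; adjusted p = 0.00383). At Mir7671 the 25 mM libraries lay above the 5 mM range for H3K18La and for H3K27Ac, and the changes when scaled to reads in peaks were 2.11 for H3K27Ac and 1.36 for H3K18La.

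Bcl3, a regulator of NF-kB, was named through a processed_transcript at chr7:19815755-19816541. H3K27Ac went from 3.23 and 5.52 to 59.0 and 19.2 RPKM (log2 fold change 2.85 ± 0.51, SE; adjusted p = 0.0113) and H3K18La from 4.82, 1.47 and 0.936 to 40.1, 10.6 and 8.14 RPKM (2.67 ± 0.55; adjusted p = 0.00387), a call that was lost without H3K18La at 5 mM replicate 2. Scaled to reads in peaks these were 1.64 and 1.4. Gm44233, a processed pseudogene at chr6:66399014-66399730, rose for H3K27Ac from 0 and 1 read to 30 and 16 reads (2.97 ± 0.47; adjusted p = 0.00698) and did not pass for H3K18La (adjusted p = 0.32).

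No fall met the rule of at least 10 reads in the higher group. The 4 members lower at 25 mM for H3K18La, named after their values were seen, were Hectd2os, Gm47389, Gm9560 and Snrpc, and the highest library among them held 7 reads at 5 mM. The 5 for H3K27Ac were Gm18952, Gm12635, Cytl1, Gm5321 and Gm7417, none above 6 reads in any library, and 4 of these 5 were processed pseudogenes.

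**Figure D4:**
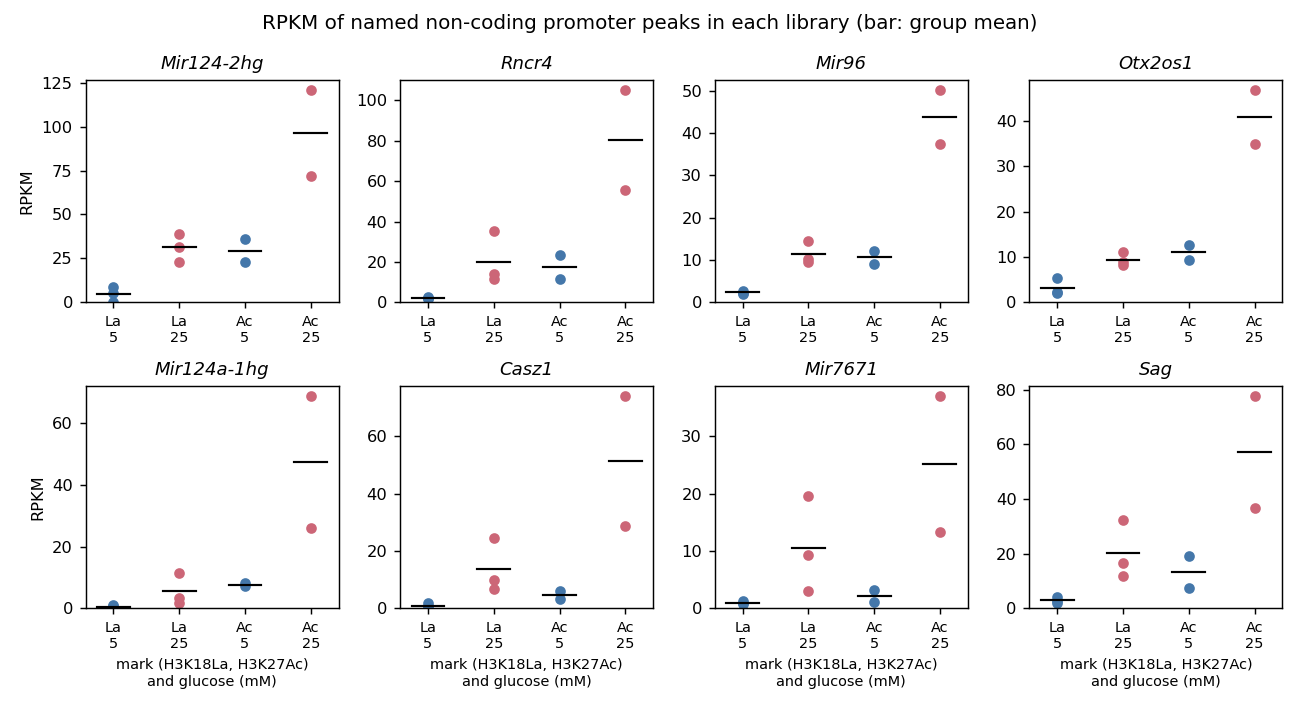
RPKM in each library (y axis, from 0) of 8 member peaks, by mark (La, H3K18La; Ac, H3K27Ac) and glucose in mM, with a bar at each group mean. In each panel the points at 25 mM lie above those at 5 mM for both marks; for Mir124-2hg the H3K27Ac points rise from 22.8 and 36.2 to 121 and 72.1 RPKM.

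Known retinal and neural non-coding genes were taken from a list of 20, of which 11 had a member peak. This list and those below were chosen with earlier results of these data known. Each gene stands by its member peak of highest mean RPKM, 25 mM libraries included, while the share of all peaks takes in weak peaks. The shares are thus of unlike peaks, and no list was tested. For H3K18La 8 of the 11 rose (72.7%, against 20.8% of all peaks) and 3 did not pass, and for H3K27Ac 6 rose (54.5%, against 16.6%) and 5 did not pass, with median log2 fold changes of 1.82 and 1.68 that were 1.27 and 0.42 when scaled to reads in peaks. The H3K18La count fell from 8 to 3 without 25 mM replicate 2, to 4 without 25 mM replicate 1 and to 5 without 5 mM replicate 2. The median level of the rod photoreceptor markers, given above, was also higher at 25 mM, and its part in these changes was not tested. Rncr4, a retinal transcript that runs opposite the miR-183/96/182 cluster, has its peak at chr6:30172626-30172944, 2915 bases from the far end of miR-183-5p. The sequence of its promoter is printed above. H3K18La at Rncr4 was 1.49, 2.42 and 2.31 RPKM at 5 mM and 35.1, 13.9 and 11.6 RPKM at 25 mM, and H3K27Ac was 11.6 and 23.2, then 105 and 55.7 RPKM. The groups were well apart, with log2 fold changes of 2.86 ± 0.38 (SE; adjusted p = 0.000307, past the threshold in 6 of 6 fits that left out a library) and 2.19 ± 0.53 (adjusted p = 0.0161). They were 1.55 and 0.93 when scaled to reads in peaks.

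The Mir96 peak, which covers miR-96 and miR-183 themselves, changed alongside Rncr4. Its H3K18La went from 2.75, 2.30 and 2.01 RPKM to 14.4, 10.2 and 9.55 RPKM (log2 fold change 2.05 ± 0.30, SE; adjusted p = 0.000473) and its H3K27Ac from 9.16 and 12.1 to 50.2 and 37.3 RPKM (1.99 ± 0.47; adjusted p = 0.0156), and both changes were 0.74 when scaled. Of the 20 listed retinal microRNAs 3 had a member peak. Mir124a-3 rose for H3K27Ac (1.49 ± 0.43; adjusted p = 0.0273) but not for H3K18La (adjusted p = 0.0932), and Mir7-2, a gene of the neuronal miR-7, passed for neither (adjusted p = 0.545 and 0.831).

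Otx2os1 is transcribed from a promoter 1014 bases from the start of Otx2, the homeobox gene of photoreceptor and bipolar fate. At Otx2os1 (chr14:48668658-48669343) H3K18La was 2.07, 2.25 and 5.37 RPKM at 5 mM and 11.1, 8.25 and 8.85 RPKM at 25 mM (log2 fold change 1.51 ± 0.35, SE; adjusted p = 0.00791), a call kept in 4 of 6 fits that left out a library. H3K27Ac rose from 9.44 and 12.7 to 46.8 and 34.9 RPKM (1.84 ± 0.47; adjusted p = 0.0188), and the scaled changes were 0.19 and 0.59. Mir124a-1hg, another miR-124 host at chr14:64586831-64587976, went from 8.07 and 7.17 to 68.5 and 25.9 RPKM for H3K27Ac (2.40 ± 0.50; adjusted p = 0.0131). Its H3K18La call (2.22 ± 0.64; adjusted p = 0.024) held in 2 of 6 such fits, and the scaled changes were 1.16 for H3K27Ac and 1.27 for H3K18La.

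The other members of the list varied. Rmst, a transcript tied to neurogenesis, and Six3os1, which lies beside the eye-field gene Six3, rose for H3K18La by 2.31 and 2.13 (adjusted p = 0.0106 and 0.0179; each call kept in 4 of 6 fits that left out a library) and not for H3K27Ac (adjusted p = 0.224 and 0.0741). Vax2os, opposite the dorsoventral patterning gene Vax2, rose for H3K27Ac by 1.85 (adjusted p = 0.0172) and not for H3K18La (adjusted p = 0.174). Zfhx2os rose for both, by 1.82 (adjusted p = 0.00993, kept in 5 of 6 such fits) and 1.77 (adjusted p = 0.0174). Nkx2-2os (adjusted p = 0.383 and 0.668) and Sox2ot (adjusted p = 0.122 and 0.975) passed for neither mark. As the interaction called no peak, none of these is shown to differ between marks.

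Of 12 listed microRNA host genes 5 had a member peak, and 3 rose for H3K18La and 2 for H3K27Ac, both of the latter being miR-124 hosts (20.8% and 16.6% of all peaks passed). The H3K18La count was 1 without 25 mM replicate 1, 25 mM replicate 2 or 5 mM replicate 2. Mir9-3hg, host of the neural miR-9, rose for H3K18La by 1.52 (adjusted p = 0.0179, kept in 3 of 6 fits that left out a library) and not for H3K27Ac (adjusted p = 0.449). Mir17hg and Mir100hg passed for neither mark. The list median of 0.86 for H3K27Ac became -0.28 when scaled to reads in peaks, and that for H3K18La went from 1.52 to 0.38.

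Non-coding forms of 4 of 30 listed phototransduction and rod genes were members, and all 4 rose for H3K18La and 3 for H3K27Ac (20.8% and 16.6% of all peaks passed), with list medians of 2.47 and 2.04 (1.21 and 0.81 when scaled). Sag, Nrl and Nr2e3 also stand among the rod markers whose levels are given above. Sag encodes rod arrestin, which shuts off rhodopsin. Its retained_intron peak at chr1:87802869-87804077 covers the coding start as well and went from 2.74, 2.07 and 4.26 to 32.4, 16.5 and 12 RPKM for H3K18La (log2 fold change 2.48 ± 0.36, SE; adjusted p = 0.000445) and from 7.46 and 19 to 77.6 and 36.7 RPKM for H3K27Ac (2.11 ± 0.53; adjusted p = 0.0183). Both marks were thus higher in every library at 25 mM. The scaled changes at Sag were 1.15 and 0.86.

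Nrl, the transcription factor that sets rod fate, had a processed_transcript peak at chr14:55520564-55521643, 2548 bases from its coding start. H3K18La at Nrl was 1.3, 1.43 and 1.36 RPKM at 5 mM and 18.4, 7.97 and 7.18 RPKM at 25 mM, a rise of 2.52 (adjusted p = 0.000564), and H3K27Ac rose by 2.25 (adjusted p = 0.0136). Scaled to reads in peaks these were 1.27 and 1.01. Cnga1, a subunit of the rod cyclic nucleotide-gated channel, rose by 2.45 and 1.96 (adjusted p = 0.0116 and 0.0144), its H3K18La call holding in 3 of 6 fits that left out a library. Nr2e3, which represses cone genes in rods, rose for H3K18La by 1.94 (adjusted p = 0.00226) and did not pass for H3K27Ac (adjusted p = 0.0661).

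Of 27 listed glycolysis genes 5 had a member peak, and 2 rose for each mark (40% of the 5, against 20.8% and 16.6% of all peaks). Pfkfb2, which sets fructose 2,6-bisphosphate, rose for both (1.27, adjusted p = 0.0449, and 1.66, adjusted p = 0.0242), with an H3K18La call that held in 1 of 6 fits that left out a library. The aldolase gene Aldoa, at a peak that also covers a coding start, rose for H3K18La (1.69, adjusted p = 0.0173, kept in 3 of 6 such fits). Its H3K18La reads went from 1, 2 and 1 at 5 mM to 5, 14 and 5 at 25 mM. Aldoa did not pass for H3K27Ac (adjusted p = 0.0523). Pfkl, a phosphofructokinase subunit, rose for H3K27Ac (1.85, adjusted p = 0.0145) and not for H3K18La (adjusted p = 0.0981). Pdk2 and Pfkfb3 passed for neither. The H3K18La count was 0 without 25 mM replicate 1, 25 mM replicate 2 or 5 mM replicate 2, and 1 without 5 mM replicate 1 or 3. The list medians of 1.27 and 1.3 were 0.04 and 0.10 when scaled to reads in peaks, and the second was -0.10 under quantile normalization.

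Nuclear and X-linked regulatory RNAs formed another list. Of 12 listed genes 8 had a member peak, and 1 rose for H3K18La (12.5%, against 20.8% of all peaks) and 5 for H3K27Ac (62.5%, against 16.6%), with medians of 0.74 and 1.4 (0.18 and 0.19 when scaled). Malat1, the abundant RNA of nuclear speckles, at chr19:5802461-5804406, was at 0.974, 0.694 and 1.51 RPKM and then 3.66, 3.54 and 3.47 RPKM for H3K18La (log2 fold change 1.41; adjusted p = 0.0283, kept in 1 of 6 fits that left out a library) and at 4.87 and 9.27, then 24.6 and 16.2 RPKM for H3K27Ac (1.5; adjusted p = 0.0339). Oip5os1, also called Cyrano and known for pairing with miR-7, was the strongest of the list and rose for H3K27Ac from 7.81 and 11.3 to 27.8 and 25.4 RPKM (1.45; adjusted p = 0.0365), a change of 0.21 when scaled and of -0.02 under quantile normalization. Ftx and Jpx, which act on Xist, rose for H3K27Ac by 2.13 (adjusted p = 0.0118) and 1.44 (adjusted p = 0.0365). Firre and Pvt1 did not pass for either mark.

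Of 10 listed imprinted transcripts 3 were found. Peg13, expressed from the paternal allele within Trappc9 and printed above, went from 1.17, 1.12 and 1.22 RPKM to 5.88, 5.48 and 2.78 RPKM for H3K18La (log2 fold change 1.59; adjusted p = 0.014, kept in 4 of 6 fits that left out a library) and from 3.63 and 5.05 to 25.8 and 14.7 RPKM for H3K27Ac (2.06; adjusted p = 0.0135). Kcnq1ot1, the antisense RNA of the Kcnq1 imprinted domain, rose for H3K27Ac by 1.31 (adjusted p = 0.0422) and not for H3K18La (adjusted p = 0.22). Airn, the antisense RNA of the Igf2r domain, passed for neither (adjusted p = 0.186 and 0.064).

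Among hosts of small nucleolar RNAs, 1 of 10 found genes rose for H3K18La (20.8% of all peaks passed) and 7 for H3K27Ac (16.6% of all peaks), with medians of 0.90 and 1.3 that became -0.01 and 0.12 when scaled to reads in peaks. Snhg12 rose for H3K27Ac from 3.65 and 7.62 to 24.7 and 21.4 RPKM (log2 fold change 2.02; adjusted p = 0.0145), and its H3K18La change was 1.04 (adjusted p = 0.164). Snhg10, at chr12:105032116-105033652 over the start of Glrx5, a mitochondrial glutaredoxin gene, rose for H3K27Ac from 4.06 and 9.11 to 22.8 and 15.9 RPKM (1.56; adjusted p = 0.03). Snhg6 passed for neither (adjusted p = 0.676 and 0.156). Snhg11, the 1 host that passed for H3K18La (1.84; adjusted p = 0.0443), lost the call in each of the 6 fits that left out a library.

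Small RNA genes themselves made a separate list, which leaves out microRNA and rRNA genes and so is narrower than the small RNA kind above. Its main biotypes differed, with 8.38% of snoRNA, 29.6% of snRNA and 21.1% of misc_RNA peaks called for H3K18La. Of 265 listed genes found, 41 rose for H3K18La (15.5%, below the 20.8% of all peaks) and 43 for H3K27Ac (16.2%, near the 16.6% of all peaks). The list medians of 0.52 and 0.38 became -0.34 and -0.42 when scaled. The number that rose for H3K18La was 23 without 25 mM replicate 2 and 25 without 25 mM replicate 3. Gm24869, a snoRNA gene at chr4:102736855-102738441, was among the 3 of highest mean and had higher RPKM for H3K18La than for H3K27Ac at 25 mM. Its H3K18La values were 6.87, 6.93 and 6.96 RPKM at 5 mM and 32.7, 34.4 and 35.9 RPKM at 25 mM, nearly the same in all libraries of a group (log2 fold change 2.23 ± 0.19, SE; adjusted p = 0.000182). Its H3K27Ac values were 4.52 and 10.6, then 17.5 and 17.1 RPKM (1.26; adjusted p = 0.0659). The RPKM of different antibodies are not on 1 scale of abundance, and the interaction did not pass at this peak. Gm24346, the strongest snoRNA peak, went from 5.10, 7.88 and 14.3 to 15.3, 16.4 and 22.5 RPKM for H3K18La, a change of 1.05 (adjusted p = 0.0287) that held in 1 of 6 fits that left out a library and turned to -0.34 when scaled to reads in peaks and -0.59 under quantile normalization.

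Among 66 members whose symbols mark them as opposite-strand or antisense transcripts, 13 rose and 1 fell for H3K18La (21.2% called, near the 20.8% of all peaks) and 23 rose for H3K27Ac (34.8%, against 16.6%), with medians of 0.74 and 0.86 that became -0.19 and -0.07 when scaled. Without 25 mM replicates 1, 2 and 3 in turn, 7, 6 and 8 of them rose for H3K18La. Pitpnm2os2, opposite the phosphatidylinositol transfer gene Pitpnm2 at chr5:124193452-124195416, had the highest mean of the antisense biotype. Its H3K18La was 4.83, 5.30 and 5.25 RPKM, then 30.03, 28.04 and 22.5 RPKM (log2 fold change 2.27 ± 0.22, SE; adjusted p = 0.000182), and its H3K27Ac 11.5 and 20.4, then 63.2 and 44.3 RPKM (1.75; adjusted p = 0.025). Ube4bos1 rose by 2.81 for H3K18La (adjusted p = 0.000194) and 2.26 for H3K27Ac (adjusted p = 0.0149), and Uckl1os by 2.74 (adjusted p = 0.000938) and 2.04 (adjusted p = 0.0165).

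The strongest peaks of the remaining biotypes also rose for H3K18La. They were ranked by mean RPKM over all libraries, those at high glucose included. The choice thus favoured peaks that rose, and their rise does not speak for strong peaks in general. Cacnb2, which encodes a calcium channel subunit, had the strongest retained_intron peak at chr2:14762714-14763711, 60381 bases from its nearest coding start, and went from 6.18, 4.06 and 5.16 to 36.2, 24.2 and 24 RPKM for H3K18La (log2 fold change 2.33; adjusted p = 0.000182) and from 12.5 and 20.8 to 80.9 and 57 RPKM for H3K27Ac (2.04; adjusted p = 0.0171). Mir8120, whose microRNA is printed above, went from 6.24, 3.65 and 8.48 to 27.2, 16.2 and 24.1 RPKM for H3K18La (1.83; adjusted p = 0.000892) and from 12.6 and 19.9 to 87.9 and 39.0 RPKM for H3K27Ac (1.86; adjusted p = 0.0237). A930023M06Rik, a sense_intronic transcript, rose by 2.30 (adjusted p = 0.000182) and 1.83 (adjusted p = 0.0187), and the snRNA Gm24859 by 2.13 (adjusted p = 0.0199, kept in 3 of 6 fits that left out a library) and 2.10 (adjusted p = 0.0145).

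Some of these peaks rose for H3K18La and did not pass for H3K27Ac. They were Gm44806 of the TEC class (1.90; adjusted p = 0.000182 and 0.0551), Gm25580 of misc_RNA (2.38; adjusted p = 0.000214 and 0.109), the 5S ribosomal gene n-R5s39 (1.68; adjusted p = 0.0199, kept in 3 of 6 fits that left out a library, and 0.0603) and Gm24346 above (H3K27Ac adjusted p = 0.0656). The pseudogenes Gm11745 and Gm48618 rose for both marks, by 1.98 (adjusted p = 0.000264) and 1.62 (adjusted p = 0.000611) for H3K18La and by 1.58 (adjusted p = 0.0364) and 1.38 (adjusted p = 0.0468) for H3K27Ac. The second was -0.08 and -0.13 under quantile normalization.

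**Figure D5:**
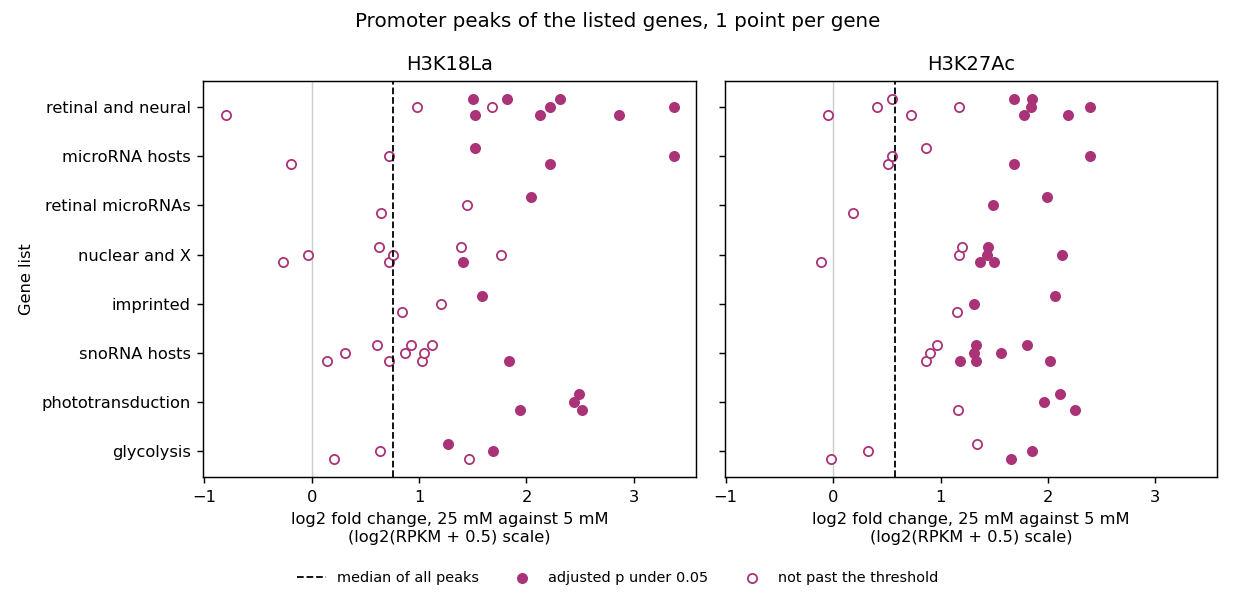
log2 fold change from 5 mM to 25 mM (x axis) of the member peak of each listed gene, 1 point per gene, filled where the limma adjusted p was under 0.05, with a dashed line at the median of all peaks (0.76 for H3K18La, 0.58 for H3K27Ac). For H3K18La 8 of 11 retinal and neural genes, 4 of 4 phototransduction genes, 1 of 8 nuclear and X-linked genes and 1 of 10 small nucleolar RNA hosts are filled, and over all peaks 20.8% passed; the lists were not tested against each other.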

How the data were processed

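The authors ran the nf-core/cutandrun pipeline against GRCm38, kept MACS peaks found in at least 2 biological replicates outside blacklisted regions, annotated peaks with ChIPseeker 1.34.1 and counted reads with csaw. They deposited RPKM, reads scaled to peak length and library total. The number of rows equals that of the merged H3K18La consensus peaks of developing retina in the study, so the peaks were taken as that set. For principal components of the explants, the study's methods name merged peaks of both marks. Whether csaw's window-based factors enter the values is not stated. For these libraries the labels' protocol names antibodies to H3K18La and H3K9me3 and a protein A-MNase, while the study's methods name H3K27Ac and protein A-Tn5; the marks are given here as the sample titles name them. The authors' table of log2 fold changes, p-values and group means for H3K18La (made with edgeR 3.40.2) was not used.

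Whole reads were recovered for 100% of the deposited RPKM values (within 0.01 read), giving the denominators quoted as depth. Reads carry no molecular identifiers, so the limit of 3 reads at 0 covers counting error only. Each mark was fitted over all 108253 peaks in R 4.3.3 by limma 3.58.1 (lmFit and eBayes, trend and robust moderation, statmod 1.5.0) on log2(RPKM + 0.5), two-sided, with Benjamini-Hochberg adjustment and a threshold of 0.05. A count test was not used as the main one because the unit is RPKM, and fold changes on this scale understate those of weak peaks. Level contrasts used exact two-sided sign-flip or label permutations over libraries. The test was also run on simulated reads in which chosen peaks changed by known folds. That simulation had a fixed spread and no rise shared by all peaks, so it does not bear on the choice of scaling. Python 3.11.15 with numpy 2.4.6, pandas 2.3.3, scipy 1.17.1 and matplotlib 3.10.9 did the rest.

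The biotype names in the deposited annotation (lincRNA, antisense, TEC) are those of GENCODE M21 and older than the Ensembl release named in the methods, so the release behind the biotypes is uncertain. Coding starts came from GENCODE M21, which held 6005 members' transcripts (99.7% of the matched transcripts in the table had the same coordinates), and sequences from GRCm38 and RefSeq. Groups and replicate numbers came from the sample labels. Libraries with the same number did not vary together (correlations of 0.0238, 0.0172 and 0.0101 for H3K18La and -0.00401 for H3K27Ac). Named peaks were, for each mark, the 4 largest rises and 4 largest falls past the threshold with groups that did not overlap and at least 10 reads on average in the higher group, the strongest peak of each biotype with at least 20 peaks, and, of each gene list, the 3 of highest mean RPKM and any told as an exception. A gene with several member peaks is given by its strongest. Further Pcbp3 peaks entered through the other parts of the rule. Strongest means the highest mean RPKM over all libraries, those at high glucose included, so this choice favoured peaks that rose. The members and the lists were chosen with earlier results of these data known. Alternatives were other pseudocounts, filters, moderation, scalings and thresholds, voom on recovered reads, the autosomes, removal of a GC trend, the replicate block and fits without 1 library.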

Additional observations from a re-analysis of the deposited data

Results flagged for a closer look

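The level of non-coding against coding promoter peaks differed between the marks. The mean log2(RPKM + 0.5) of non-coding minus coding promoter peaks was lower by 0.632 for H3K27Ac than for H3K18La, a difference of -0.632 (exact permutation of the mark labels over 10 libraries, p = 0.00952). All 4 H3K27Ac values lay below all 6 H3K18La values.

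The level of members that share a coding start against members apart from one also differed between the marks. Shared minus apart was higher by 0.975 for H3K27Ac than for H3K18La (exact permutation p = 0.00952), with all 4 H3K27Ac values above all 6 H3K18La values. This comparison between marks was chosen after seeing the data. The peaks were taken to have been called on H3K18La and not on H3K27Ac, and for both results this selection and the mark cannot be told apart.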

How the results depend on the processing

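The number of members called for a glucose change depended on the scaling. For H3K18La (1379 called) it was 754 at a threshold of 0.01, 351 with libraries centred on the median peak, 0 when scaled to reads in peaks and 0 under quantile normalization, and 791 to 1300 when 1 library was left out, the lowest being 791 without 25 mM replicate 2 and 869 without 25 mM replicate 1. For H3K27Ac (1739 called) it was 8 at a threshold of 0.01, 601 with centring, 1144 with a GC trend removed, 703 with the replicate block, 546 with the replicate block and the GC trend removed, and 0 with a pseudocount of 0.1, ordinary moderation, scaling to reads in peaks or quantile normalization. With 1 H3K27Ac library left out it ranged from 0 to 0, in fits of 1 library against 2 with 1 residual degree of freedom, where the lone library is assumed to vary like the others and a count of 0 says little. Scaling to reads in peaks and quantile normalization remove by construction a rise that peaks share. Without the processed forms, an alternative chosen after seeing the data, 670 and 563 of the 2866 members left were called for H3K18La and H3K27Ac. Over all peaks 20.8% and 16.6% were called. The interaction had 0 calls under every alternative, with a range of 0 to 0 when 1 library was left out. With the replicate block 1157 members were called for H3K18La (18471 of all peaks), and 1138 with the GC trend removed as well (19572 of all peaks). For other settings, counts or shares over all peaks stand in the second comparison above.

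The median member log2 fold change for H3K18La was 1.27 and 0.64 with pseudocounts of 0.1 and 1, 1.12 without weak peaks (mean RPKM under 1), 0.23 with centring, 0.10 under quantile normalization and -0.05 when scaled to reads in peaks, and 0.79 to 0.93 with 1 library left out. For H3K27Ac it was 1.06 with a pseudocount of 0.1, 0.68 centred on the weakest peaks, 0.43 with centring on the median, 0.09 under quantile normalization and -0.13 when scaled, and 0.69 to 1.08 with 1 library left out. With peaks at 0 reads set to the bound that 3 reads allow, the medians were 0.84 and 0.86.

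The H3K18La non-coding minus coding level was 0.0136 with a pseudocount of 1, 0.154 without weak peaks (mean RPKM under 1), and -0.0156 to 0.0302 with 1 library left out, and its glucose change was 0.0527 without weak peaks (mean RPKM under 1) and -0.0912 to 0.0192 with 1 library left out. The H3K18La shared minus apart level was 0.0136 with a pseudocount of 0.1 and -0.273 without weak peaks (mean RPKM under 1). It was 0.0247 with the coding start required inside the peak, and -0.110 to -0.0391 with 1 library left out. The filter on weak peaks uses the same RPKM values that these levels compare. The H3K27Ac levels kept their sign with 1 library left out (-0.693 to -0.550 for non-coding minus coding, -0.409 to -0.201 for its glucose change, 0.790 to 0.992 for shared minus apart).

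Only named peaks past the threshold for the mark are listed here. Others turned too, such as Gm25580 for H3K27Ac, from 1.18 to -0.06 when scaled and -0.33 under quantile normalization. Gm24346 turned to -0.34 for H3K18La when scaled to reads in peaks and to -0.59 under quantile normalization. Gm48618 was -0.08 for H3K18La and -0.13 for H3K27Ac under quantile normalization, where Oip5os1, Gm38221 and Gm11745 were -0.02, -0.03 and -0.02 for H3K27Ac. The cause of these changes was not tested. At a median of 1 to 7 reads per member, the H3K18La libraries cannot show small differences at single peaks.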
